A study of Mus musculus with 10 samples.

Results

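Transforming growth factor beta (TGF-beta) ligands, their receptors and the latent TGF-beta binding proteins (LTBPs) were examined as 10 genes chosen by name, of 41249 genes in the count tables. They are the ligands Tgfb1, Tgfb2 and Tgfb3, the receptors Tgfbr1, Tgfbr2 and Tgfbr3, and the latency proteins Ltbp1, Ltbp2, Ltbp3 and Ltbp4. All 10 had a mean above 1 CPM, the TMM-normalized count scaled to library size, and were among the 13739 genes tested. RNA of whole interscapular brown adipose tissue (iBAT) was sequenced from 5 Axl KO and 5 wild-type (WT) littermate mice, 1 library per mouse. The Axl KO mice lacked the receptor tyrosine kinase AXL constitutively in the whole body, through a knockout-first cassette inserted into Axl by targeting of ES cells, and the line was bred to C57Bl6. The sources used here do not say which ES cell clone gave these mice. Mice of both groups were male and received a high-fat diet (HFD) for 24 weeks from an age of 6 to 8 weeks according to the labels, at room temperature. The study's text gives a different age and duration. There was no group on another diet, so each value below belongs to HFD-fed mice.

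Each mouse gave between 5431014 and 9580215 counts. The 6 markers of the brown and white adipocyte list summed to between 13394 and 18484 CPM per mouse, which goes with the labelled tissue. Skeletal muscle markers summed to 18.8 CPM in Axl KO replicate 1 and to 4.06 CPM in Axl KO replicate 2, against 583 to 2911 CPM in the 5 WT mice and up to 2382 CPM in the other Axl KO mice. The results below are therefore also given without those 2 mice where their call or direction differed.

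TGF-beta is secreted as a latent dimer, in which the mature growth factor is held by its own propeptide. An LTBP, bound to the propeptide by a disulfide bond, tethers this complex to fibrillin and fibronectin fibres of the extracellular matrix, and integrins or proteases release the ligand. The free ligand binds the type II receptor, which phosphorylates the type I receptor, and the type I receptor phosphorylates SMAD2 and SMAD3. In adipose tissue the pathway is known for restraining adipocyte differentiation and for collagen deposition in fibrosis.

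Axl (ENSMUSG00000002602, reverse strand, GRCm38 chr7:25757273-25788705) was read first as a check of the labels. Axl KO replicates 1 to 5 had 13, 13, 15, 3 and 9 counts, and WT replicates 1 to 5 had 383, 361, 357, 224 and 359. The groups did not overlap, and the log2 fold change was −4.77 (SE 0.20, adjusted p = 1.10e-07 by the quasi-likelihood test of edgeR, adjusted over all tested genes after Benjamini and Hochberg).

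None of the 10 genes differed between Axl KO and WT mice after adjustment, by edgeR or by DESeq2, and in all 10 the values of the groups overlapped. Of all 13739 genes, 0.00728% passed an adjusted p under 0.05 in edgeR, which is Axl alone, 0.0655% passed in DESeq2, and 1.35% had groups that did not overlap. At an unadjusted p under 0.05, 3 of the 10 genes passed, namely Ltbp1, Ltbp3 and Ltbp4, and each was lower in Axl KO. DESeq2 passed these 3 genes as well. Over all genes, 8.4% passed that unadjusted threshold in edgeR, 3.86% as lower and 4.54% as higher in Axl KO, and 6.93% passed it in DESeq2. By sign, 5 of the 10 genes were higher and 5 lower, against 49.8% higher and 50.2% lower over all genes, and their median log2 fold change was −0.00096, against −0.00059 over all genes.

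**Figure D1:**
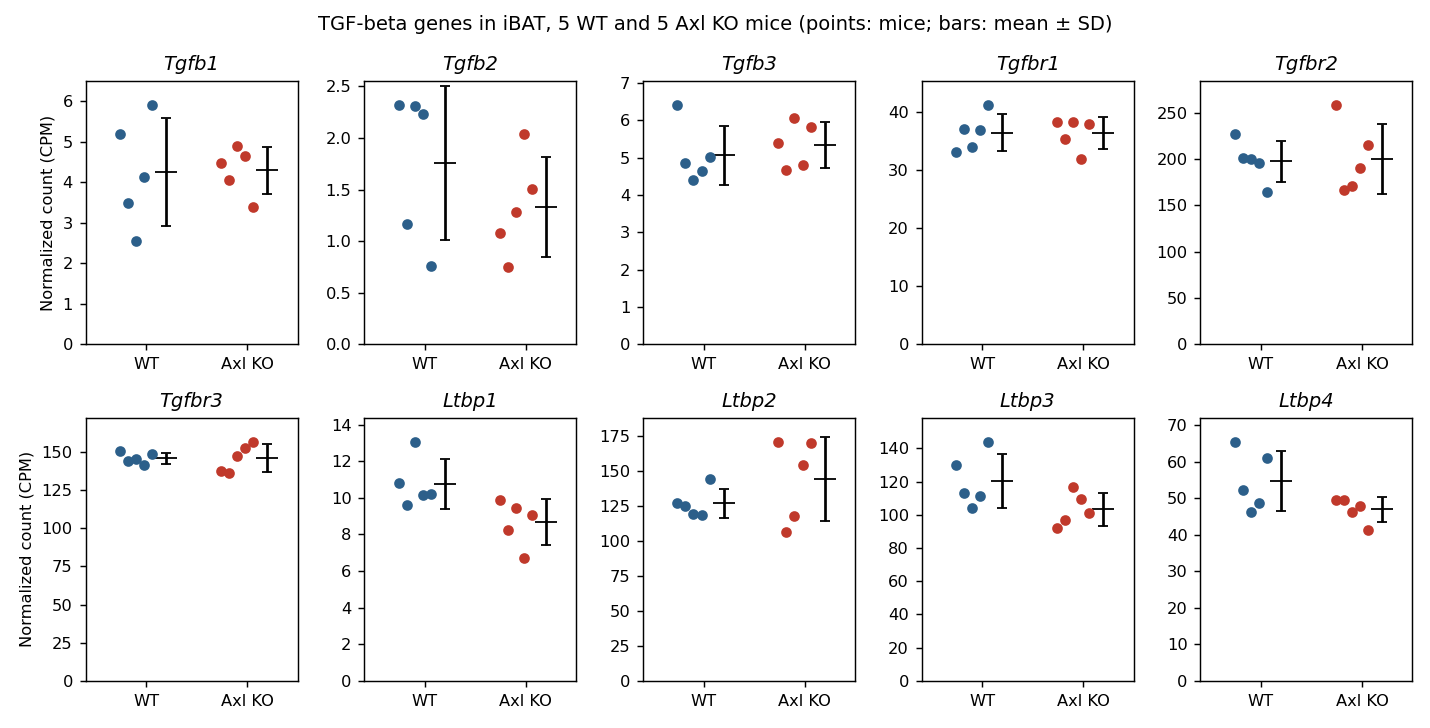
Normalized counts (CPM, linear axes from 0) of the 10 genes, with 1 point per mouse and bars for the mean and SD of 5 mice. Ltbp1 shows the clearest shift, with 4 of 5 Axl KO mice below every WT mouse, while the groups of Tgfb1, Tgfb3 and the receptors lie over each other.

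The sequences just upstream of 4 of the genes are shown, because 3 are the LTBP genes with the lowest p-values and Tgfb1 is the member nearest to the disrupted Axl locus. They were taken from RefSeq (GRCm38.p6) as the 250 bases before its start, and read 5′ to 3′ on the strand of the gene. Bases inside the GENCODE gene were cut off, which shortened the Ltbp4 sequence to 170 bases. The 2 annotations can place a start differently, and the Ltbp1 sequence ends before the GENCODE gene begins. Capitals mark the GC box, GGGCGG on either strand, which transcription factors of the SP family bind. Tgfb1 lies at chr7:25686752-25687001 (forward strand), Ltbp1 at chr17:75005279-75005528 (forward), Ltbp3 at chr19:5740650-5740899 (forward) and Ltbp4 at chr7:27337693-27337862 (reverse).
Tgfb1: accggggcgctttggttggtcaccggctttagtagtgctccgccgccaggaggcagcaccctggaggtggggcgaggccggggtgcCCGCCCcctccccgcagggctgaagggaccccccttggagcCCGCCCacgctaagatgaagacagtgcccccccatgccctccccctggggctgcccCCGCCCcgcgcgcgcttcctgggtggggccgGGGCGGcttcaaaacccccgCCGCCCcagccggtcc
Ltbp1: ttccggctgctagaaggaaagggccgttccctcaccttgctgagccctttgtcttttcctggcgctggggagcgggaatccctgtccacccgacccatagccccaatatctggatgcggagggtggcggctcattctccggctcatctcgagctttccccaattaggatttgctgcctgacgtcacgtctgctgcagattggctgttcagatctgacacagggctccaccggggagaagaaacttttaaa
Ltbp3: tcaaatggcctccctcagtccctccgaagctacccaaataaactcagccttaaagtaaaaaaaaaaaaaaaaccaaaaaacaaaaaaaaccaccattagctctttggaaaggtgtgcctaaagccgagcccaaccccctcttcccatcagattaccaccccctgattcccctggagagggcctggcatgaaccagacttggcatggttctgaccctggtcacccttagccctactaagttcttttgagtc
Ltbp4: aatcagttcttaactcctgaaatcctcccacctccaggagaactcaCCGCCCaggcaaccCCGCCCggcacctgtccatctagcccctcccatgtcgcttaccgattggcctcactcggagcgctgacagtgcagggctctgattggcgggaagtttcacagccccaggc
The Tgfb1 sequence held 5 GC boxes, and the 170 bases shown for Ltbp4 held 2 of the 3 in its window of 250 bases, while Ltbp1 and Ltbp3 held none. Of 32817 promoter windows of 250 bases in the table, 32.7% held a GC box. An AP-1 site (TGACTCA, found in 4.46% of windows), the SMAD-binding CAGA element (CAGACA, 17.1%) and a TATA box (TATAAA, 12.4%) were searched on both strands too, and none of these letters occurred in the 4 windows. No searched motif occurred in all 3 of the LTBP windows. Where a gene had several windows, the most upstream was used, and motifs in its others were not counted. Ltbp1 and Tgfbr1 had 2 windows each, and Ltbp4 had 3. Among the other members with an entry, Tgfbr1 and Ltbp2 held 2 GC boxes each, Tgfbr2 held none of the motifs, and Tgfb2 held 1 CAGA element and 1 TATA box. Tgfb3 and Tgfbr3 had no entry.

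Among the ligands, Tgfb1 is the isoform best known from fibrosis and immune control. Tgfb1 (ENSMUSG00000002603, chr7:25687002-25705077) had 4.47, 4.06, 4.90, 4.66 and 3.39 CPM in Axl KO replicates 1 to 5, and 5.19, 3.49, 2.54, 4.13 and 5.91 CPM in WT replicates 1 to 5. All Axl KO values fell inside the WT range. Its log2 fold change was 0.033 (SE 0.22, 95% interval −0.45 to 0.51, adjusted p = 0.981, edgeR). Each value rested on 18 to 47 counts, for which counting alone gives a coefficient of variation of 18.6%. The coefficient between mice was 13.8% in Axl KO and 31.4% in WT mice.

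Tgfb2 (ENSMUSG00000039239, chr1:186622792-186705989), the isoform that needs the co-receptor betaglycan for tight binding to its receptors, was the least abundant member. In Axl KO mice its values were 1.08, 0.751, 1.28, 2.04 and 1.51 CPM, and in WT mice 2.32, 1.16, 2.31, 2.24 and 0.755 CPM. Though 3 WT mice lay above every Axl KO mouse, WT replicate 5 was near the lowest Axl KO mouse, and each value rested on 5 to 20 counts. A difference was not detectable at this depth, with a log2 fold change of −0.38 (SE 0.35, 95% interval −1.14 to 0.39, adjusted p = 0.787, edgeR). With skeletal muscle markers as a covariate it was 0.037, and without the 2 mice low in those markers it was −0.11.

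Tgfb3 (ENSMUSG00000021253, chr12:86056745-86079041) had the highest level of the ligands per kb of exon union, though not per kb of the longest transcript, where Tgfb1 was higher. Its values were 5.40, 4.66, 6.06, 4.80 and 5.83 CPM in Axl KO, and 6.42, 4.87, 4.39, 4.64 and 5.03 CPM in WT mice. The ranges overlapped almost fully, with a log2 fold change of 0.080 (SE 0.15, 95% interval −0.24 to 0.40, adjusted p = 0.901, edgeR). On the opposite strand it overlaps Ttll5, which had 1913 counts in the 10 mice against 380 for Tgfb3, and the strand setting of the counting is not given in the sources used here.

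The receptors had the log2 fold changes closest to 0. Tgfbr1 (ENSMUSG00000007613, chr4:47353222-47414931), the type I receptor kinase, had 38.4, 35.5, 38.4, 32.0 and 38.0 CPM in Axl KO and 33.2, 37.1, 34.0, 37.0 and 41.3 CPM in WT mice. The means were 36.5 ± 2.76 and 36.5 ± 3.19 CPM (SD, n = 5 mice each), and the log2 fold change was −0.0023 (SE 0.076, 95% interval −0.17 to 0.16, adjusted p = 0.998, edgeR).

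Tgfbr2 (ENSMUSG00000032440, chr9:116084293-116175360), the type II receptor kinase that captures the ligand, had 258, 167, 170.2, 190.4 and 215 CPM in Axl KO and 227, 201, 199.7, 196 and 164 CPM in WT mice. Axl KO replicate 1 was the highest of all 10 mice, and WT replicate 5 the lowest. The difference in log2 was 0.018 (SE 0.12, 95% interval −0.24 to 0.28, adjusted p = 0.981, edgeR). Without the 2 mice low in skeletal muscle markers it was −0.042.

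Tgfbr3 (ENSMUSG00000029287, chr5:107106570-107289629) encodes betaglycan, which presents ligand to the type II receptor. Its values were 137, 136, 147, 152 and 157 CPM in Axl KO and 150.2, 144, 145, 141 and 148 CPM in WT mice. WT mice lay between 141 and 150.2 CPM, with 2 Axl KO mice below and 2 above them. The log2 fold change was 0.00036 (SE 0.055, adjusted p = 1.00, edgeR), and its 95% interval reached from 92.0 to 109% of the WT level, the narrowest interval of the 10 genes. Gm43422, a gene that overlaps Tgfbr3 on the same strand, had 1034 counts in the 10 mice against 10648 for Tgfbr3.

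**Figure D2:**
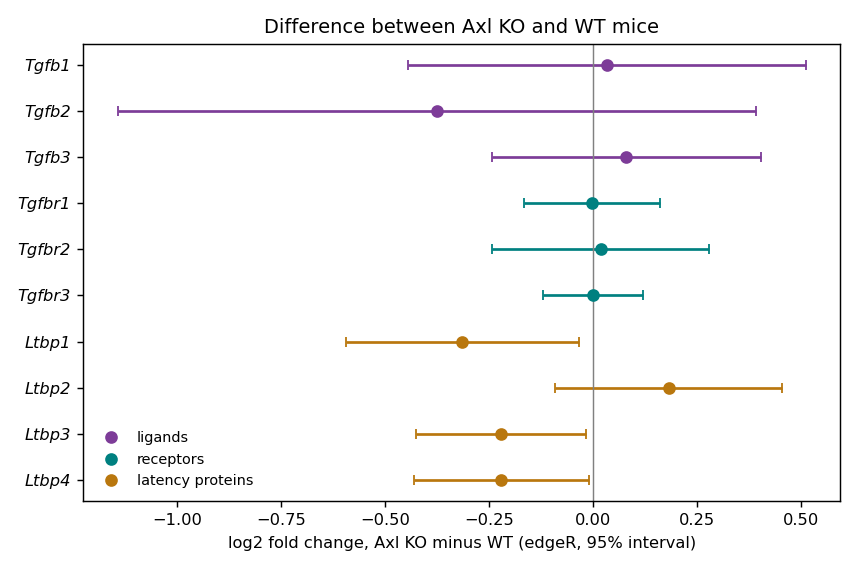
Log2 fold change, Axl KO minus WT (x axis, edgeR), with its 95% interval, for the ligands, receptors and latency proteins. The unadjusted intervals of Ltbp1, Ltbp3 and Ltbp4 lie below 0, that of Ltbp2 spans −0.091 to 0.45, and the 3 receptors centre on 0.

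The latency proteins showed the lowest p-values. Ltbp1 (ENSMUSG00000001870, chr17:75005568-75392512), the archetype that carries latent TGF-beta into the matrix, had 9.88, 8.27, 9.44, 6.70 and 9.03 CPM in Axl KO and 10.8, 9.63, 13.1, 10.1 and 10.2 CPM in WT mice. The 2 groups overlapped by a single pair of mice, because Axl KO replicate 1 exceeded WT replicate 2. The means were 8.66 ± 1.25 and 10.8 ± 1.35 CPM (SD, n = 5 each), with a log2 fold change of −0.31 (SE 0.13, 95% interval −0.60 to −0.033). The unadjusted p of 0.0312 gave an adjusted p of 0.571 in edgeR, and the exact permutation test on log2(CPM + 0.5) gave p = 0.0159 (two-sided, smallest possible 0.00794). Its values rested on 46 to 113 counts per mouse.

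Ltbp3 (ENSMUSG00000024940, chr19:5740904-5758532), which also binds latent TGF-beta and is known from bone and tooth development, had 92.3, 96.9, 117, 109.7 and 101 CPM in Axl KO and 130.1, 113, 104, 111 and 144 CPM in WT mice. The 2 highest values belonged to WT replicates 5 and 1, and 3 Axl KO mice lay below every WT mouse. The log2 fold change was −0.22 (SE 0.094, 95% interval −0.43 to −0.017), with an unadjusted p of 0.0361, an adjusted p of 0.571 (edgeR) and an exact permutation p of 0.0714. Without the 2 mice low in skeletal muscle markers it was −0.14 with an unadjusted p of 0.215.

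Ltbp4 (ENSMUSG00000040488, chr7:27305136-27337692), which binds latent TGF-beta weakly and takes part in elastic fibre assembly, had 49.7, 49.6, 46.3, 48.0 and 41.4 CPM in Axl KO and 65.5, 52.3, 46.4, 48.8 and 61.2 CPM in WT mice. Again WT replicates 1 and 5 were the highest, while WT replicates 3 and 4 lay among or near the Axl KO mice. The log2 fold change was −0.22 (SE 0.097, 95% interval −0.43 to −0.011), with an unadjusted p of 0.0409, an adjusted p of 0.579 (edgeR) and an exact permutation p of 0.103.

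Ltbp2 (ENSMUSG00000002020, chr12:84783212-84876532), the one LTBP that does not bind latent TGF-beta, had 171, 106, 118, 154 and 169.7 CPM in Axl KO and 127, 124, 119, 118 and 144 CPM in WT mice. Axl KO mice fell on both sides of the WT mice, 3 above all of them and 2 below. The coefficient of variation was 20.8% in Axl KO and 8.33% in WT mice, and the log2 fold change was 0.18 (SE 0.13, 95% interval −0.091 to 0.45, adjusted p = 0.697, edgeR). Ltbp2 was the only LTBP gene with a positive log2 fold change. Without Axl KO replicate 2 it was 0.27, with an unadjusted p of 0.0263 (edgeR).

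LTBP genes are expressed by fibroblasts among other cells. In bulk tissue, fewer cells of a type and less RNA per cell cannot be told apart. The 6 fibroblast and progenitor markers summed to 220, 196, 226, 138 and 141 CPM in Axl KO and to 261, 198, 253, 192 and 219.6 CPM in WT mice (exact permutation p = 0.151, adjusted p = 0.332 over 11 marker lists), and 0 of the 6 were higher in Axl KO. With that list as a covariate, none of the 10 genes kept an unadjusted p under 0.05 (edgeR). Of all genes, 4.17% passed in that fit, against 8.4% without the covariate. The log2 fold changes with it were −0.18 for Ltbp1, −0.23 for Ltbp3 and −0.18 for Ltbp4. Adipocyte markers summed to 14813 to 18484 CPM in Axl KO and 13394 to 15732 CPM in WT mice (exact permutation p = 0.0317, adjusted 0.233). Of these 6 markers, 4 were higher in Axl KO, and 1 had an unadjusted p under 0.05 (edgeR). In log2, Cidea and Adipoq were at 0.015 and 0.043, and Plin1 and Lep at −0.10 and −0.37, so the sum does not show a shift of the whole list. Smooth muscle and pericyte markers summed to 520 to 641 CPM and 569 to 680 CPM (exact permutation p = 0.0635, adjusted 0.233). Platelet markers, of interest because platelets store TGF-beta1, summed to 6.63 to 8.86 CPM in Axl KO and 4.13 to 7.30 CPM in WT mice (exact permutation p = 0.0476, adjusted 0.233). Only 2 of the 6 platelet markers passed the filter, and the sum was mostly Pf4, with means of 4.65 and 3.66 CPM. Gp1ba and Gp9 went the other way, with means of 0 CPM in Axl KO and of 0.103 and 0.122 CPM in WT mice. The part of these cell types in the LTBP values was not tested further.

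Compared per length, as CPM per kb of exon, the 10 genes spanned from 0.267 ± 0.109 for Tgfb2 to 24.3 ± 3.57 for Tgfbr2 (SD, n = 10 mice). Tgfbr2 was followed by Tgfbr3 at 22.3 ± 0.998, Ltbp2 at 16.5 ± 2.81, Ltbp3 at 12.3 ± 1.72, Ltbp4 at 7.88 ± 1.12 and Tgfbr1 at 5.58 ± 0.431. Tgfb3 at 1.54 ± 0.202, Ltbp1 at 0.908 ± 0.155 and Tgfb1 at 0.848 ± 0.193 came next. Receptors and most latency proteins thus stood well above the ligands, and Tgfbr1 was the scarcest receptor. Tgfbr2 exceeded Tgfbr3 in 6 of 10 mice and Ltbp1 exceeded Tgfb1 in 5 of 10, so these neighbours were not separated, while every other neighbour pair kept its order in 10 of 10 mice. Divided by the longest transcript in place of all exons, Tgfb1 ranked above Tgfb3 and Ltbp1.

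**Figure D3:**
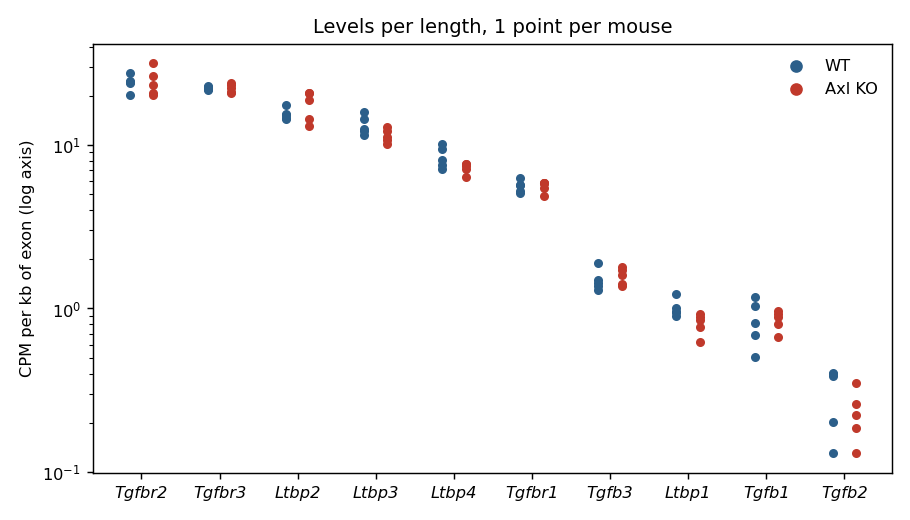
Level per length of each gene (CPM per kb of exon, log axis), with 1 point per mouse, WT and Axl KO side by side, ordered by the mean over 10 mice. The receptors Tgfbr2 and Tgfbr3 lie above 20 CPM per kb, and the 3 ligands lie below 2 CPM per kb in every mouse.

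The share of each gene within its class was computed per mouse, with no test between the groups. The shares rest on the union of exons as the length. With the longest transcript Tgfb1 exceeded Tgfb3, and Ltbp2 and Ltbp3 were close to each other. Of the summed ligand level per length, Tgfb3 made up 59.4% in Axl KO and 56.8% in WT mice, Tgfb1 32.0 and 31.5%, and Tgfb2 8.57 and 11.7%. Tgfbr2 and Tgfbr3 made up 46.4 and 42.8% of the receptor level in Axl KO mice, and 46.3 and 42.9% in WT mice. Within the LTBPs, Ltbp2 made up 47.0 ± 6.14% in Axl KO and 40.5 ± 1.73% in WT mice (SD, n = 5 each), and Ltbp3 31.0 and 34.7%. The summed level per length was 2.66 ± 0.239 and 2.65 ± 0.443 for ligands, 52.3 ± 4.87 and 52.0 ± 2.41 for receptors, and 37.0 ± 3.24 and 38.2 ± 4.06 for LTBPs.

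Pairs of the 10 genes were compared across the 10 mice after the group means were taken out, 45 pairs in all. None had an adjusted p under 0.05, and 3 had an unadjusted p under 0.05. Tgfb1 and Ltbp4 had r = 0.82 (permutation p = 0.0197, rho = 0.82, permutation p = 0.0231, adjusted p = 0.444 for r), which was 0.73 without the 2 mice farthest from the median of Tgfb1. Tgfb1 and Ltbp3 had r = 0.80 (permutation p = 0.0153, rho = 0.75, permutation p = 0.0367, adjusted p = 0.444 for r), and 0.58 without the 2 mice farthest out. WT replicates 1 and 5 had the highest values of all 10 mice for Tgfb1, Ltbp3 and Ltbp4. Tgfb2 and Tgfbr1 had r = −0.70 (permutation p = 0.0416, rho = −0.75, permutation p = 0.0242, adjusted p = 0.624 for r), and −0.73 without the 2 mice farthest out. Within the 5 Axl KO mice alone, r was 0.66, 0.46 and −0.45 for these 3 pairs, in the order given. Within the 5 WT mice r was stronger for each pair, at 0.86, 0.93 and −0.87.

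Tgfb1 lies 52.2 kb from Axl on chromosome 7, with Ccdc97 and Hnrnpul1 between them, so it is a neighbour of the targeted locus. Ltbp4 lies 1.52 Mb from Axl. Within 500 kb of the start of Axl, 32 genes of the files start besides Axl, and 12 of these were tested, Tgfb1 among them. None had an unadjusted p under 0.05, and 7 were higher and 5 lower in Axl KO, with a median log2 fold change of 0.058. Bckdha, a subunit of the branched-chain ketoacid dehydrogenase, was at 0.10 (adjusted p = 0.707) and Cyp2b10, a xenobiotic-metabolizing cytochrome, was at 0.91 (adjusted p = 0.741, edgeR).

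**Figure D4:**
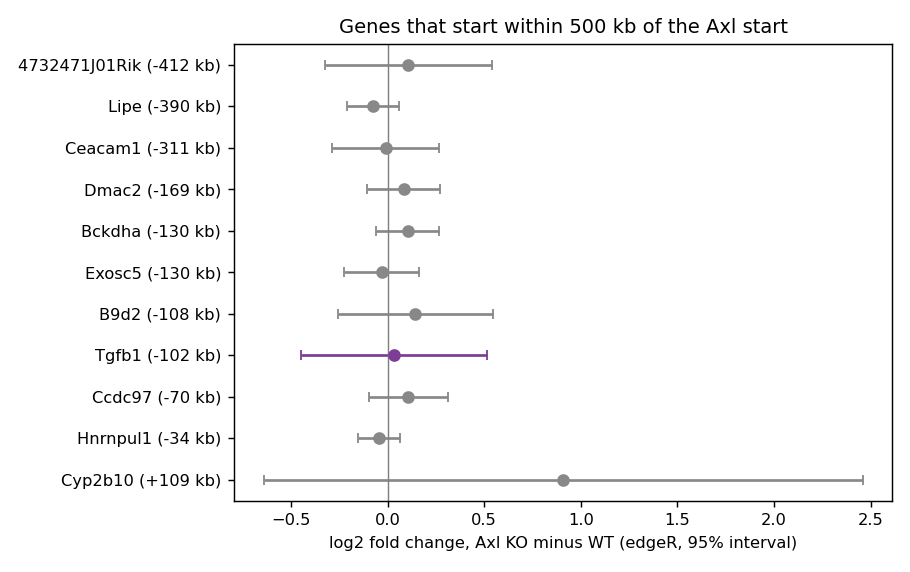
Log2 fold change, Axl KO minus WT, with its 95% interval (x axis, edgeR) for 11 of the 12 tested genes that start within 500 kb of the Axl start, ordered by position, with the distance between start sites in the gene label. All intervals shown include 0, among them that of Tgfb1, −0.45 to 0.51.

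Genes that act before and after the receptors were read from 5 lists, which share some genes with each other. No gene of these lists had an adjusted p under 0.05 in edgeR, and the values given for single genes are log2 fold changes. The activators and matrix anchors, which hold or release latent TGF-beta, had 14 of 19 genes tested. All 14 were lower in Axl KO by sign, where 50.2% of all genes were, but 0 of the 14 had an unadjusted p under 0.05, and their median log2 fold change was −0.30. Lowest in p were Lrrc32, which encodes the latent TGF-beta docking protein GARP, at −0.36 (adjusted p = 0.601), the gelatinase Mmp2 at −0.32 (adjusted p = 0.602) and Emilin1, a matrix glycoprotein that binds the TGF-beta1 precursor, at −0.40 (adjusted p = 0.608, edgeR). Lrrc32 ranged from 2.82 to 4.06 CPM in Axl KO and from 3.49 to 5.85 CPM in WT mice, so the groups overlapped. The most abundant per length was Itgb1, the integrin beta 1 chain, at −0.059 (adjusted p = 0.789, edgeR). Without the 2 mice low in skeletal muscle markers, 11 of the 14 were lower, with that muscle list as a covariate 10, and with the fibroblast list as a covariate 12. With no filter on low counts, 3 of the 14 had an unadjusted p under 0.05 (edgeR), where 6.49% of all genes did. With the replicate number as a block, 3 of the 14 did too, where 7.66% of all genes did.

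All 11 co-receptors and ligand-binding proteins were tested, and 8 were lower and 3 higher in Axl KO. At an unadjusted p under 0.05, 2 passed, both lower (18.2% of the list, where 8.4% of all genes passed, 3.86% as lower). They were Cd109, a co-receptor that dampens TGF-beta signaling, at −0.79 (SE 0.25, exact permutation p = 0.0159) and Lrp1, an endocytic receptor for many ligands, at −0.27 (SE 0.092, exact permutation p = 0.0238), each with an adjusted p of 0.571 in edgeR. Cd109 ranged from 1.02 to 2.33 CPM in Axl KO and from 1.97 to 3.02 CPM in WT mice, and 4 of 5 Axl KO mice lay below every WT mouse. These values rested on only 6 to 20 counts in Axl KO and 14 to 26 in WT mice. Counting alone gives a coefficient of variation of 29.4% at that depth. Decorin (Dcn), which binds TGF-beta in the matrix, was at −0.21 (adjusted p = 0.608), and Nrp1, the most abundant per length, at 0.11 (adjusted p = 0.641, edgeR).

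Of 20 SMADs and regulators, 19 were tested, and 9 were higher and 10 lower in Axl KO, with a median of −0.0047. The 2 with an unadjusted p under 0.05 were both lower, Fkbp1a, which keeps the type I receptor inactive, at −0.23 and Ldlrad4, an inhibitor of SMAD phosphorylation, at −0.31 (exact permutation p = 0.0397 each, adjusted p = 0.571 each in edgeR). These 2 are 10.5% of the genes tested from the list, near the 8.4% of all genes that passed. Smad6, an inhibitory SMAD, was at 0.22 (adjusted p = 0.647, edgeR), and Pmepa1, a feedback inhibitor and the most abundant per length, at −0.082. Without the 2 mice low in skeletal muscle markers, none of the 19 had an unadjusted p under 0.05, where 5.9% of all genes did.

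Among 27 target genes, 24 were tested, 7 higher and 17 lower in Axl KO, with a median of −0.21. At an unadjusted p under 0.05, 5 passed, all lower (20.8% of the list, against 3.86% of all genes that passed as lower). The lowest p-values were those of Timp3, a tissue inhibitor of metalloproteinases, at −0.26 (SE 0.084, exact permutation p = 0.0317), and the fibrillar collagen genes Col5a1 at −0.41 (SE 0.16, exact permutation p = 0.0556) and Col1a2 at −0.40 (SE 0.16, exact permutation p = 0.0794), each with an adjusted p of 0.571 in edgeR. Timp3 ranged from 203 to 274 CPM in Axl KO and from 249 to 292 CPM in WT mice, with 4 of 5 Axl KO mice below every WT mouse. Ldlrad4 and the collagen gene Col1a1, which is also in the fibroblast marker list, were the others. With the fibroblast markers as a covariate, 1 of the 24 kept an unadjusted p under 0.05, where 4.17% of all genes passed. Col1a1 is part of that covariate and so is adjusted in part for itself, and its own loss there carries no information. The list was written from general knowledge of the pathway, but with earlier results of these data known. Other signals also regulate its genes.

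In the activin and BMP branch, 21 of 30 genes were tested, and 9 were higher and 12 lower, with a median of −0.039 and none at an unadjusted p under 0.05. Acvr1c, the type I receptor ALK7 of adipocytes, was at 0.15 (adjusted p = 0.609), Id3, an inhibitor of bHLH factors that BMPs induce, at −0.24 (adjusted p = 0.631), and Bmp6, an activator of brown adipogenesis, at −0.16 (adjusted p = 0.664, edgeR). The ligands and receptors of TGF-beta itself were centred near 0, with medians of 0.033 and 0.00036.

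**Figure D5:**
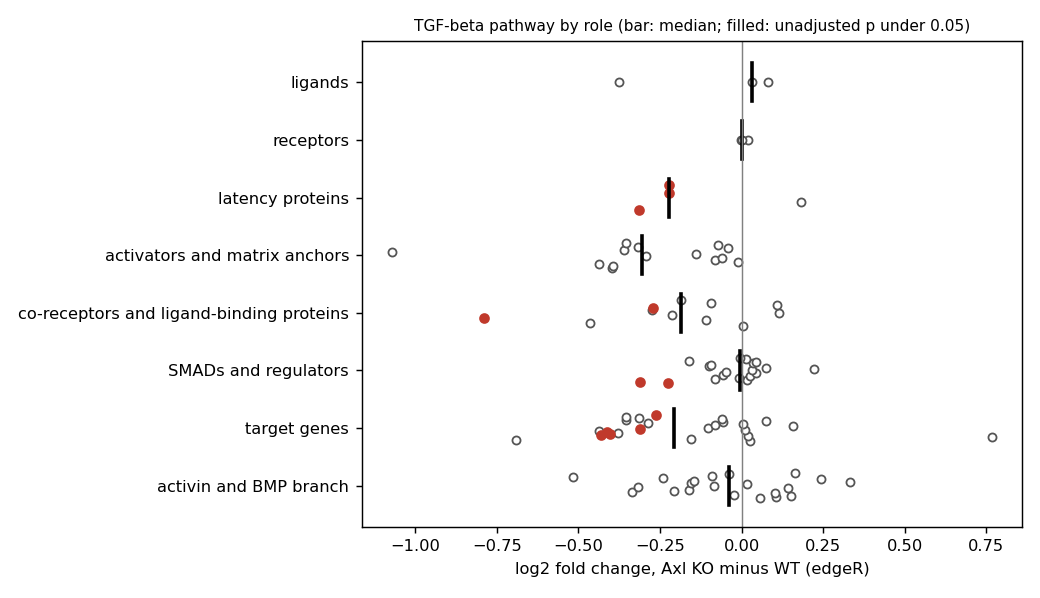
Log2 fold change, Axl KO minus WT (x axis, edgeR), for each tested gene of the TGF-beta pathway, grouped by role, with the median as a bar and genes with an unadjusted p under 0.05 filled. All filled points lie left of 0, and the activators and matrix anchors lie left of 0 without a filled point.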

How the data were processed

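RNA-seq counts of iBAT from 5 Axl KO and 5 WT mice were analysed, each mouse as 1 replicate. The authors deposited 1 table of raw counts per mouse over 41249 Ensembl genes, without normalization or pooling. The study's text names rRNA depletion, Trim Galore and hisat2, whereas the labels name polyA RNA and the submitters' processing notes name Trimmomatic 0.36, STAR 2.6.1c and GRCm38.p5, so which of these made the files could not be settled. The counting tool and its strand setting are not given in the sources used here, so genes that overlap on either strand are uncertain. Total counts per mouse were 5431014 to 8214841 in Axl KO and 5952427 to 9580215 in WT mice.

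Counts were normalized by TMM and compared with edgeR 4.0.16 in R 4.3.3 (quasi-likelihood test without covariates). The 13739 genes whose mean exceeded 1 CPM were tested, with Benjamini-Hochberg adjustment over all of them. The biological coefficient of variation was 14.84%. Unadjusted p-values are from the same test. For single values, exact permutation tests over mice (two-sided) were run, on log2(CPM + 0.5) for genes. Correlations used 100000 permutations, with adjustment over the 45 pairs. The procedure was tested on simulated data. The tables of any 2 mice differed by more than counting noise, with a chi-square per gene of at least 5.39.

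Coordinates are from GENCODE M21 (GRCm38), which held 41163 of the gene identifiers. Levels per length used the union of all exons. The 10 genes, the pathway and marker lists and the alternatives were chosen with earlier results of these data known. Named genes are the members, Axl, the up to 3 tested genes of each list with the lowest unadjusted p, the most abundant of each list per length, and the 3 genes near Axl with the lowest p. Other names, such as Col1a1, were chosen after their values were seen, and some genes that these choices would name are not reported here. Alternatives were DESeq2 1.42.0, RLE size factors, filterByExpr, no filter, protein-coding genes alone, a replicate block, skeletal muscle or fibroblast markers as a covariate, and each mouse left out in turn. Leaving out the 2 mice lowest in skeletal muscle markers, and the counts per list under each alternative, were added after the data were seen.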

Additional observations from a re-analysis of the deposited data

Results flagged for a closer look

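Of 80 groups of 5 mice examined for a single distant mouse, 5 stood out by Dixon's criterion (gap over range above 0.71), where chance alone gives about 4. None of them was a value of the 10 TGF-beta genes. For Axl, Axl KO replicate 4 was the lowest at 0.437 CPM (3 counts), with the nearest Axl KO mouse at 1.69 CPM. For Cd109, Axl KO replicate 3 was the highest at 2.33 CPM (20 counts), against 1.39 CPM for the next mouse, so the other 4 Axl KO mice lay further below the WT mean than the group mean shows. For Ldlrad4, Axl KO replicate 3 was again the highest at 15.4 CPM, against 11.5 CPM. Summed endothelium markers were highest in WT replicate 5 at 616 CPM, with the next WT mouse at 469 CPM. Summed smooth muscle and pericyte markers were highest in Axl KO replicate 3 at 641 CPM, with the next Axl KO mouse at 538 CPM.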

How the results depend on the processing

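None of the 10 genes had an adjusted p under 0.05 under any alternative run, and the lowest adjusted p of a member was 0.233, for Ltbp3. Over all genes DESeq2 called 9, where edgeR called 1, as it did without each mouse in turn (1 to 1). The number of members with an unadjusted p under 0.05, 3 in the report, was 1 with the replicate number as a block (Ltbp1), 1 with skeletal muscle markers as a covariate (Ltbp4), 0 with fibroblast markers as a covariate, 2 without the 2 mice lowest in skeletal muscle markers (Ltbp1 and Ltbp4), and 1 to 3 without each mouse in turn. Over all genes, 7.66, 6.73, 4.17 and 5.9% passed in these settings in the same order, and 5.94 to 14.8% without each mouse in turn. Without Axl KO replicate 2 the passing members were Ltbp4, lower, and Ltbp2, higher in Axl KO (0.27, unadjusted p of 0.0263, edgeR). The number was 1 without Axl KO replicate 4, Axl KO replicate 5, WT replicate 1 or WT replicate 5. The number of members higher in Axl KO, 5, ranged from 3 to 6 without each mouse, and was 3 without Axl KO replicate 3, Axl KO replicate 5 or WT replicate 3. The cause was not tested.

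Directions that turned were those of values near 0, together with that of Tgfb2. Skeletal muscle markers as a covariate gave −0.0078 for Tgfb1 and 0.037 for Tgfb2, the replicate block gave 0.00097 for Tgfbr1 and −0.0014 for Tgfbr3, and Tgfbr2 was −0.042 without the 2 mice lowest in skeletal muscle markers. Tgfbr3 was −0.00089 with DESeq2, −0.00032 with filterByExpr, −1.34e-05 among protein-coding genes and −0.026 with fibroblast markers as a covariate. Without each mouse in turn, the log2 fold change ranged from −0.11 to 0.19 for Tgfb1, from −0.58 (without Axl KO replicate 4) to −0.23 (without Axl KO replicate 2) for Tgfb2, from 0.025 (without Axl KO replicate 3) to 0.18 (without WT replicate 1) for Tgfb3, from −0.035 to 0.046 for Tgfbr1, from −0.090 to 0.078 for Tgfbr2, from −0.028 to 0.025 for Tgfbr3, from −0.36 to −0.23 for Ltbp1, from 0.11 (without Axl KO replicate 1) to 0.27 (without Axl KO replicate 2) for Ltbp2, from −0.27 to −0.15 for Ltbp3 and from −0.28 to −0.15 for Ltbp4. Ltbp1 kept an unadjusted p under 0.05 in 7 of these 10 fits, all but those without Axl KO replicates 2 or 4 or WT replicate 3. Ltbp3 kept it in 5, losing it without Axl KO replicates 1, 2 or 5 or WT replicates 1 or 5, and Ltbp4 in 5, losing it without Axl KO replicates 3, 4 or 5 or WT replicates 1 or 5. Without each mouse in turn, the count of target genes with an unadjusted p under 0.05 ranged from 1 to 8, and that of activators and matrix anchors from 0 to 5. Both highest counts were those without Axl KO replicate 3, where 14.8% of all tested genes passed that threshold, against 8.4% with all mice. The lowest count of target genes was that without Axl KO replicate 4 or WT replicate 1, where 7.56 and 6.7% of all genes passed.

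The mice share only a replicate number between the groups. Correlations of same-numbered mice were −0.36 to 0.37, and 2 of 10 mice correlated best with their own number, so the block was not used in the report. Among the 10 genes, depth limits Tgfb2 and Tgfb1 most, since counting alone gives coefficients of variation of 32.8% and 18.6%.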
